A study of Saccharomyces cerevisiae with 6 samples.

Results

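The subtelomeres of the 13 longer budding yeast chromosomes, meaning the outer 20 kb of each chromosome arm, are described here for a map of Rec8 made by chromatin endogenous cleavage with sequencing (ChEC-seq). Every 20 bp bin in the authors' deposited table that lies on a chromosome other than I, III and VI, and whose middle is within 20 kb of either end in build R64, was taken. This gave 311 bins of the 14224 in the table. Position alone chose them, but the table lists only bins that passed the authors' test, so every value below comes from a bin with an adjusted p under 0.05.

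In ChEC-seq a protein is fused to micrococcal nuclease (MNase), calcium is added to start the nuclease, and the DNA cut beside the protein is sequenced. The mutant diploids carried Rec8-3xFLAG-MNase, ctf19-9A and ndt80-delta (3 cultures), and the wild-type (WT) diploids carried Rec8-3xFLAG-MNase and ndt80-delta (3 cultures). Each culture came from a different zygote, the strain background is labelled X and Y without explanation, and deletion of NDT80 held all cells in meiotic prophase I. Meiosis was induced in both genotypes by growth in YP acetate and then transfer to potassium acetate, and cleavage was started there by a short incubation with calcium chloride. Both genotypes therefore lack the factor that ends prophase, and the WT cells are not unmodified cells.

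Rec8 is the kleisin subunit of meiotic cohesin, a ring that joins sister chromatids and anchors the chromosome axis. Ctf19 is a kinetochore protein, and ctf19-9A removes phosphorylation sites through which it draws the cohesin loader to centromeres. Yeast ends finish in short TG-rich telomere repeats. Next to these lies an X element, and many ends also have 1 or more copies of the Y' element, which carries the YRF1 helicase genes and sits between the X element and the telomere. Subtelomeres hold few essential genes and many repeated families, such as the COS genes (membrane proteins of endosomal sorting), the seripauperin PAU genes (cell wall mannoproteins) and the MAL genes (maltose use). Cohesin on chromosome arms is known to collect between convergent genes.

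The log2 fold change has no stated direction in the file header or the labels. It is read here as likely ctf19-9A over WT, because loss of the loader's recruitment would lower Rec8 around centromeres and the bins there are negative in the authors' deposited table. A positive value then means more Rec8 cleavage in ctf19-9A relative to the rest of the library. How the libraries were scaled to each other is not given, so no absolute amount of Rec8 can be read from a value. Were the ratio the other way up, all directions would turn. No values of single cultures are in the table, so depth is unknown, no spread between cultures can be given, and no test beyond the authors' own was made. Standard errors (SE) were computed from each log2 fold change and its p-value.

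All 311 subtelomeric bins were positive and 0 were negative. Across the genome, 9.18% of the bins that entered the authors' adjustment passed in either direction and 5.58% passed as positive. How many subtelomeric bins entered is not given, so no matching share can be stated for them. Their log2 fold change had a median of 0.58 (quartiles 0.51 and 0.68, range 0.40 to 1.22), with a median SE of 0.17. Interior arm bins of the same 13 chromosomes, 50 kb or more from a centromere and over 20 kb from an end, had a median of 0.55 (quartiles 0.49 and 0.61) with a median SE of 0.17. Of these 7206 interior bins 7088 were positive and 118 negative, so a positive sign was common to the arms. The medians differed by 0.04 on the log2 scale, and the medians of single ends had an SD of 0.14 (n = 19 ends).

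A stricter threshold left 90 of the 311 subtelomeric bins (28.9%), which had an adjusted p under 0.01, against 1298 of the interior bins (18.0%). This share was uneven: 44 of 97 bins (45.4%) in the last 1 kb, 31 of 97 (32.0%) from 5 to 10 kb and 15 of 116 (12.9%) from 10 to 20 kb. Of all 14224 listed bins, positive and negative together, 36.1% passed this threshold, and of the 8648 positive ones 1598 did. At the ends of I, III and VI 41.6% of the listed bins passed it. As shares of tested rather than listed bins, 3.31% passed genome-wide in either direction and 1.03% passed as positive. Listed bins covered 6.22 kb of subtelomere in 86 regions of touching bins, and the longest such region was 320 bp. Of the 20 bp positions in the subtelomeres 1.20% were listed (95% Wilson interval 1.07 to 1.34), against 1.53% (1.49 to 1.56) in interior arms. Neighbouring bins can share fragments, so these intervals, which cover counting error only, are too narrow. The listed share was above that of positive bins in the same chromosome's interior on 5 of 13 chromosomes, so a denser listing than in the interior was not general to the ends.

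Where the listed bins lay within the 20 kb was very uneven. The last 1 kb held 97 bins at 9 ends, a listed share of 7.51% (Wilson 6.19 to 9.07). From 1 to 5 kb only 1 bin was listed among 5200 positions, a share of 0.0192% (0.0034 to 0.109). Genome-wide, 154927 bins entered the authors' adjustment against 603559 positions, so these shares count untested positions too. Whether the unlisted positions from 1 to 5 kb were untested or did not pass cannot be told apart. From 5 to 10 kb 97 bins made up 1.49% (1.22 to 1.82), and from 10 to 20 kb 116 bins made up 0.892% (0.745 to 1.07). Within the 20 kb, the densest single kilobase after the last one was that from 6 to 7 kb, with 53 bins at 6 ends and a share of 4.08%. Beyond 20 kb, the kilobase from 26 to 27 kb held 57 bins at 4 ends, a share of 4.38%. A kilobase of that density was thus not particular to the subtelomeres. Listed bins had a peak at the end, a stretch with almost none, and a denser kilobase 6 to 7 kb inward. The median log2 fold change of listed bins moved little over these distances, at 0.56, 0.57 and 0.60 for the last 1 kb, 5 to 10 kb and 10 to 20 kb. Their median SE was 0.16, 0.17 and 0.19 in the same order. Only bins past the threshold are listed, so the medians of all bins at these distances are unknown.

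**Figure D1:**
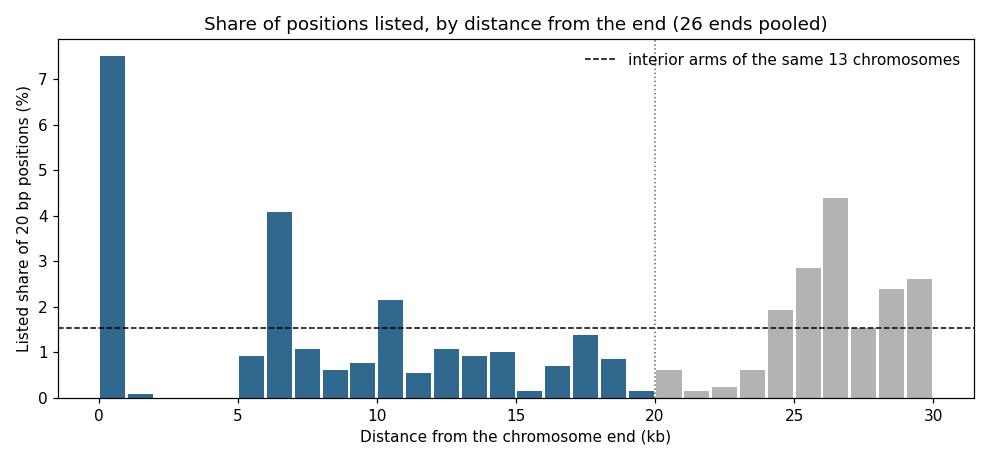
Share of 20 bp positions that are listed (%, y axis) in each kilobase from the chromosome end (x axis, kb), pooled over 26 ends, with blue bars inside 20 kb and grey bars beyond it. The dashed line is the interior arm share of 1.53%. The bar for the last 1 kb stands at 7.51%, that for 6 to 7 kb at 4.08% and the grey bar for 26 to 27 kb at 4.38%. Those between 2 and 5 kb are at 0.

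The ends differed in whether they had bins at all. Listed bins lay within 20 kb of 19 of 26 ends, 9 left and 10 right, and each of the 13 chromosomes had at least 1 such end. The right end of VIII had the most bins (38), followed by 35 each on the right end of IV and the left end of XV and 27 on the right end of II. These 4 ends held 43.4% of all subtelomeric bins, while the left end of XVI had a single bin and the right end of V had 7. No bin was listed within 20 kb of the left ends of IV, V, IX and X or the right ends of XII, XIV and XV. The nearest listed bin there was 20.3 kb from the left end of IV, 24.9 kb from the right end of XIV, 27.3 kb from the left end of V, 28.9 kb from the left end of IX, 31.2 kb from the right end of XV, 37.8 kb from the left end of X and 49.5 kb from the right end of XII. Whether the bins at an end without listings were left untested or did not pass cannot be told apart.

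**Figure D2:**
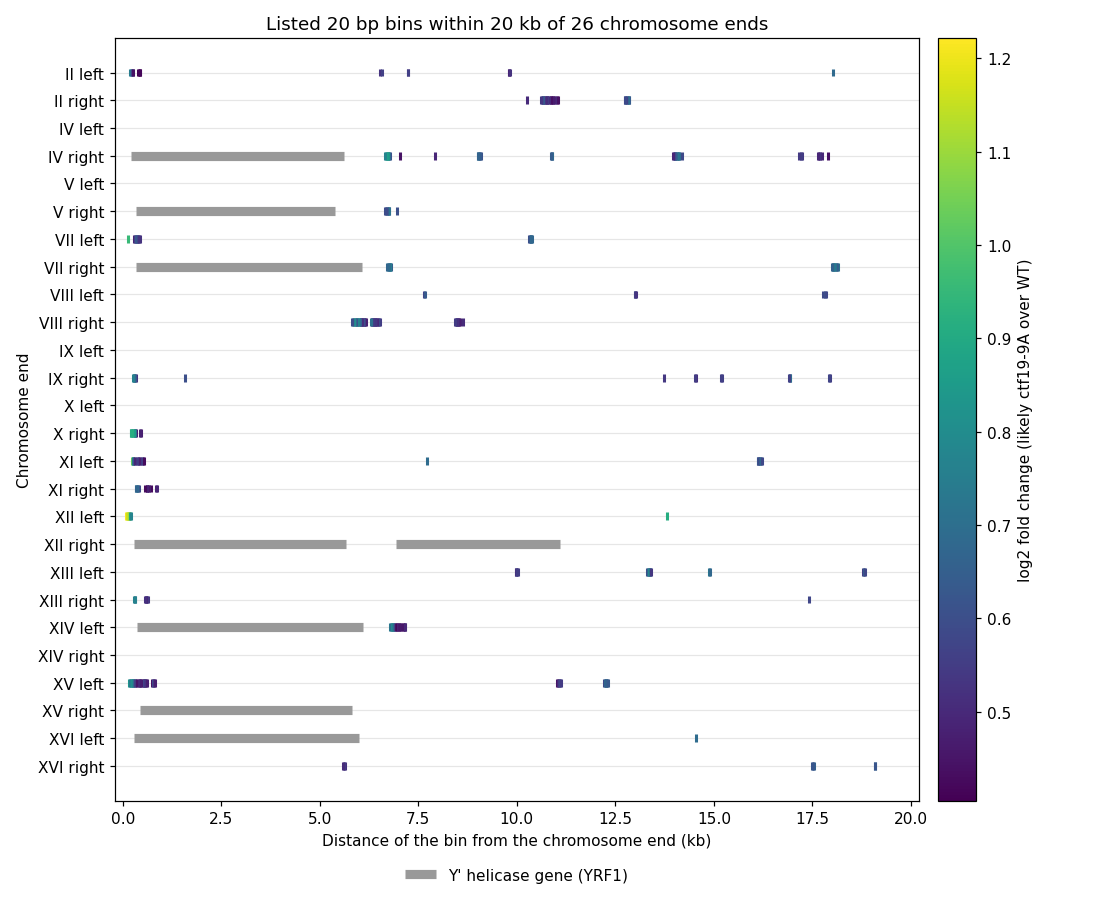
Each tick is a listed 20 bp bin, placed by its distance from the chromosome end (x axis, kb) on 1 row per end, and coloured by its log2 fold change. Grey bars are the 8 YRF1 helicase genes of Y' elements; ticks lie beside some of these genes on the centromere side, at 6.66 kb on the right ends of IV and V, and 0 ticks lie in them or between them and the end.

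At 9 ends the bins began at the very end of the chromosome. The outermost bin was 0.0905 to 0.327 kb from the end on II left, VII left, IX right, X right, XI left, XI right, XII left, XIII right and XV left. Most of this sequence lies beyond the last annotated gene, and for telomere-adjacent DNA no gene can be named. The left end of XII had the highest values of all. In the authors' deposited table its bin at 81 to 100 had a log2 fold change of 1.22 (SE 0.19, adjusted p 1.03e-07), outside the gene YLL067C. The 7 bins from 81 to 220 on XII had a median of 1.14 and none was below 0.77, and 5 of the 6 subtelomeric bins with a log2 fold change of at least 1 were among them.

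The remaining bin of that size was at the left end of XI. There the authors' deposited table gave 1.03 (221 to 240; SE 0.21, adjusted p 0.000158) outside PAU16, a seripauperin gene, and the 12 bins from 221 to 540 had a median of 0.55. On VII left, outside COS12, the authors' deposited table gave 0.96 at 121 to 140 (SE 0.22, adjusted p 0.000709), with a median of 0.58 over 9 bins to position 440. These ends had 1 or a few high bins at the outer edge and lower ones further in. On X right, outside COS5, the authors' deposited table gave 0.92 at 745501 to 745520 (SE 0.17, adjusted p 2.13e-05). Its 10 bins had a median of 0.77, the next highest of the 9 ends after XII left.

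In the other terminal groups the highest bin of the authors' deposited table was 0.83, on XV left. XV left had the most terminal bins, 24 from 161 to 820 around the short gene YOL166W-A, with a median of 0.54 and, in the authors' deposited table, 0.81 at 221 to 240 (SE 0.17, adjusted p 0.000158). AAD15, for a putative aryl-alcohol dehydrogenase, is the next gene inward there and held no bin. IX right had a median of 0.67 over 5 bins. XIII right, outside PAU19, had 0.55 over 8 bins, and XI right, outside GEX2, for a glutathione exchanger, had 0.49 over 13 bins. II left had the lowest median of the 9, 0.44 over 9 bins from 181 to 460 that ran into YBL113C. In the authors' deposited table the bin of II left with the smallest adjusted p had 0.71 (201 to 220; SE 0.14, adjusted p 4.38e-05).

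Toward the end itself the values were higher at each of these 9 ends. The outermost bin exceeded the median of its end's terminal bins at 9 of 9 ends, with 1.22 against 1.14 on XII left and 1.03 against 0.55 on XI left, for example. The 34 bins in the last 0.3 kb, at 8 ends, had a median of 0.78. The 63 bins from 0.3 to 1 kb, also at 8 ends, had a median of 0.52, a split chosen after the values were seen. XII left had bins only in the outer part and XI right only in the inner part, so this contrast also holds differences between ends. The SE was also larger at the outer edge, above the end's median SE at 8 of 9 ends, and a bin with a larger SE needs a larger change to be listed. The part of the threshold in the higher outer values was not tested. Telomere repeats, X elements and Y' elements have close copies at many ends, and the submitters' notes do not say how reads with several matches were treated. Whether the values of a single end, such as XII left, are particular to that end cannot be told.

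**Figure D3:**
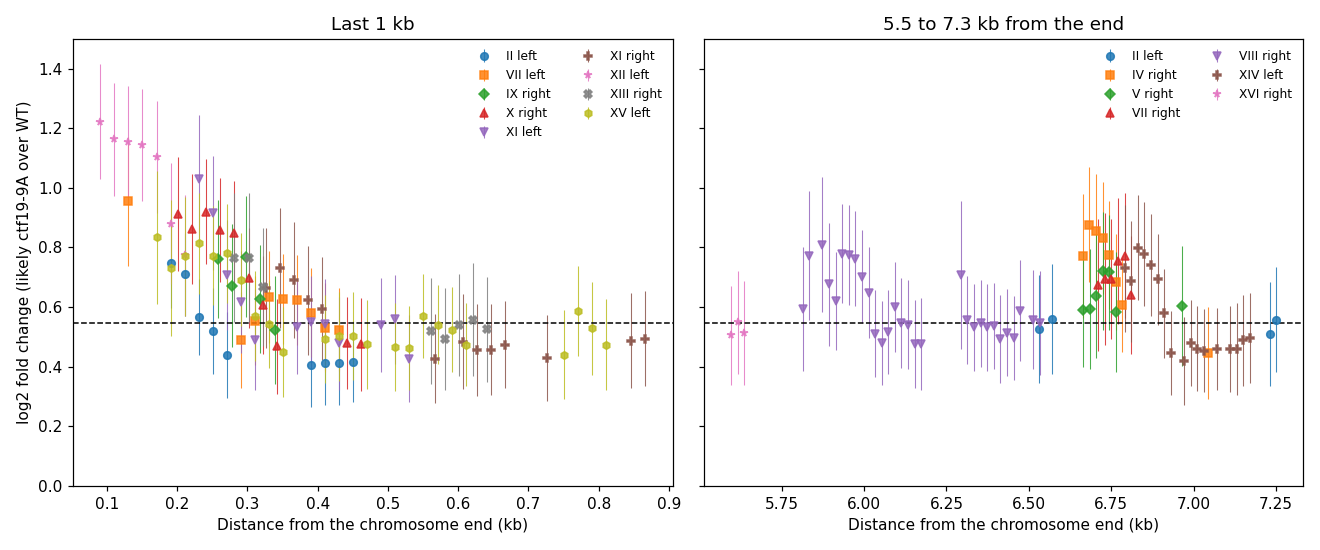
Log2 fold change of each listed bin (y axis; error bars are 1 SE computed from the authors' p-value) against distance from the chromosome end (x axis, kb), for the last 1 kb (left) and 5.5 to 7.3 kb (right). Symbols mark the end, and the dashed line is the interior arm median of 0.55; at the 9 ends on the left the outermost bin, up to 1.22 on XII left, is above its end's median.

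A further 75 bins lay 5.5 to 7.3 kb from 7 ends, limits also chosen after the values were seen, with a median of 0.59 and a listed share of 3.21%. Together with the last 1 kb these stretches held 172 bins, or 55.3% of the subtelomeric ones. II left was the only end with bins in both. On 4 of these ends a YRF1 gene, for the helicase of the Y' element, lies between the bins and the telomere. The gap from the nearest bin to that gene was 624 bp for YRF1-3 on VII right, 683 bp for YRF1-6 on XIV left, 1041 bp for YRF1-1 on IV right and 1260 bp for YRF1-2 on V right. On these 4 ends the bins thus lay just inward of the helicase gene, on the side where an X element is known to lie. X element coordinates were not used here. II left, VIII right and XVI right have genes without a YRF1 symbol between the bins and the telomere. Whether those are Y' genes was not identified here, so 4 may be too low a count of ends with a Y' element there.

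IV right had the highest bin of this stretch. In the authors' deposited table it was 0.88 at 1525241 to 1525260 (SE 0.19, adjusted p 0.000444), between PAU10 and YRF1-1, and the 8 bins there had a median of 0.77. XIV left, between YRF1-6 and COS1, reached 0.80 at 6821 to 6840 in the authors' deposited table (SE 0.17, adjusted p 0.000391). Its 17 bins had a median of 0.49, with the high bins near the outer edge. VII right, between COS6 and YRF1-3, had a median of 0.69 over 6 bins. V right, between YER188C-A and YER189W and nearer to YER188C-A, had 0.60 over 7 bins. The outer edge was not the high point in general, since the outermost bin exceeded its end's median at 2 of the 7 ends in this stretch.

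The largest group of all was on VIII right. Its 30 bins from 556101 to 556840 lay between IMD2, for IMP dehydrogenase of guanine nucleotide synthesis, and YHR218W, with a median of 0.55. In the authors' deposited table the smallest adjusted p was at 556661 to 556680 (0.76, SE 0.16, adjusted p 0.000161) and the highest value at 556761 to 556780 (0.81, SE 0.23, adjusted p 0.0107). A further 8 bins lay on the other side of IMD2, toward the acid phosphatase gene PHO12, with a median of 0.51. IMD2 itself held none, so the bins flanked it. XVI right had 3 bins with a median of 0.51 between ARR3, an arsenite transporter gene, and YPR202W.

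Of the 8 genes with a YRF1 symbol, on 7 ends, none was overlapped by a bin, and 0 bins lay between any of them and its chromosome end. Genes were rarely overlapped in general, 6 of 203 in the windows (2.96%), so this count is near that of all genes. Y' genes without a YRF1 symbol were not identified here. For the other 4 of the 8 the nearest bin inward was far away, 8.53 kb from YRF1-7 on XVI left, 25.3 kb from YRF1-8 on XV right, and 38.4 and 43.8 kb from YRF1-4 and YRF1-5 on XII right. The YRF1 genes are near-identical copies, so their reads cannot be assigned to 1 copy with certainty.

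Over the remaining subtelomere, 139 bins at 15 ends had a median of 0.59 and lay mostly between genes, both single genes and members of families. The MAL loci were prominent among them. On II right, 20 bins spanned 802141 to 802940, almost all between the convergent genes MAL33, for the regulator of maltose genes, and MAL31, for a maltose permease, with a median of 0.50. The authors' deposited table gave 0.63 for the bin with the smallest adjusted p there (802521 to 802540; SE 0.16, adjusted p 0.00323). Another 7 bins lay at the 5′ side of MAL33, toward TYC1, with a median of 0.64. On VII right, 8 bins lay between MAL13 and MAL11, the paralogous convergent pair, with a median of 0.72. There the authors' deposited table gave 0.73 at 1072921 to 1072940 (SE 0.18, adjusted p 0.0024). MAL31, with 1 bin, was the only gene assigned to a family by its symbol that a bin overlapped.

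IV right had bins at further sites up to 17.9 kb from the end. Of these, 10 lay between IRC4 and YDR541C with a median of 0.65, and 8 lay between FDC1, for ferulic acid decarboxylase, and IRC4 with a median of 0.52. A further 8 lay between YDR541C and PAU10, in 2 groups, each with a median of 0.64. IX right had 10 bins from 13.7 to 17.9 kb, around genes of redox metabolism. The 3 between IRC24 and HYR1, for a peroxidase, had a median of 0.59. Those between GTT1, for a glutathione transferase, and the cell wall protease gene YPS6 lay at 3 places with medians of 0.53 to 0.56. All of the latter were nearer to GTT1, and YPS6 was at least 4338 bp away. All 5 groups of IX right in that stretch thus had medians between 0.53 and 0.59.

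On XIII left, the highest bin lay between ERO1, for the oxidase that drives disulfide formation in the endoplasmic reticulum, and COX14, for a cytochrome oxidase assembly factor. The authors' deposited table gave 0.79 for it (13341 to 13360; SE 0.21, adjusted p 0.00498). Bins in and beside RSC9, a subunit of the RSC chromatin remodeller, had a median of 0.58. The single bin of XII left outside the terminal group was high, 0.91 at 13801 to 13820 in the authors' deposited table (SE 0.25, adjusted p 0.00873), between PAU18 and AYT1. Its SE was near the top of the subtelomeric range of 0.13 to 0.25. On XVI left the only bin, between the fluoride exporter gene FEX2 and YPL278C, had 0.69 in the authors' deposited table with an adjusted p of 0.0489 (SE 0.24), close to the threshold.

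VIII left had 8 bins at 3 places. They lay between COS8 and ARN2, a siderophore transporter gene (median 0.60), between PXP3 and DFP4 (median 0.56), and in and beside YHL041W (median 0.59), and none had an adjusted p under 0.01. XV left had 5 bins between YOL162W and PAU20 (median 0.55) and 6 between PAU20 and YOL160W (median 0.66). XI left had 6 bins between the convergent genes COS9 and SRY1 (median 0.62) and 1 bin between MCH2 and FRE2, for a ferric reductase (0.69 in the authors' deposited table). VII left had 5 bins at 10.3 to 10.4 kb, next to VEL1, with a median of 0.67. Medians of these groups, with the single bin of XI left included, ran from 0.55 to 0.69.

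**Figure D4:**
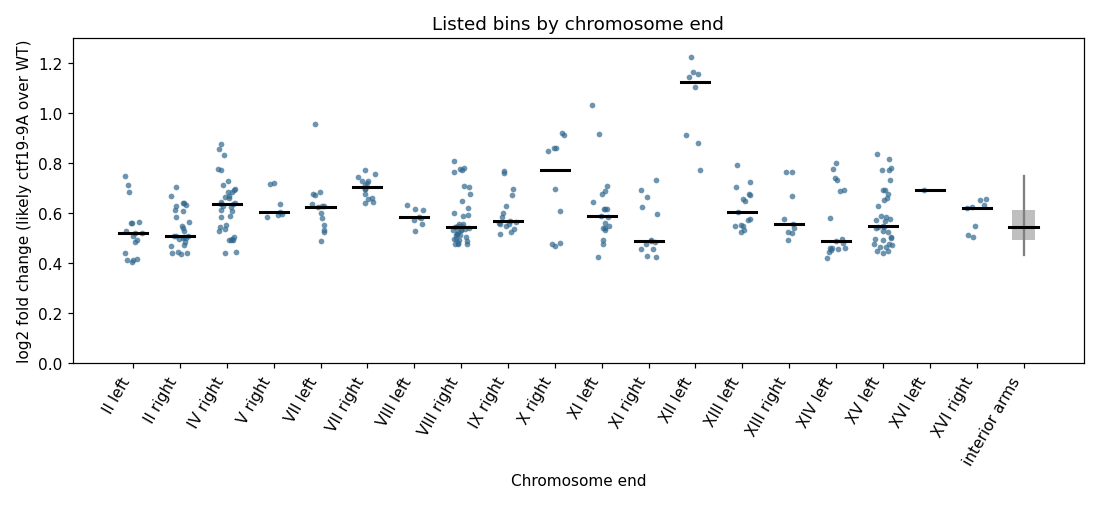
Log2 fold change of each subtelomeric bin (points, y axis) by chromosome end (x axis, 19 ends that have bins), with the median of each end as a black line. At the right, interior arm bins are shown by their median of 0.55, quartiles (box) and the 5th to 95th percentile (line). XII left has the highest median, 1.12, and its lowest bin is at 0.77.

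End medians ran from 0.49 on XI right and XIV left to 1.12 on XII left, and 14 of 19 were above the interior arm median of 0.55. XII left was followed by X right (0.77) and VII right (0.70). With chromosomes as units, the subtelomeric median was above that of the same chromosome's positive interior bins on 9 of 13 and below it on 4. The differences had a median of 0.05, a mean of 0.09 and an SD of 0.17, and ran from -0.06 on XIV to 0.58 on XII. The SD exceeded the mean, and after XII the largest difference was 0.24, on X.

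By gene family, listed bins lay beside genes far more than in them, and a gene here counts as overlapped if any base of a bin falls in it. Annotated genes centred in the windows numbered 203, of which 76 belonged to the named families. Families were assigned by gene symbol, so any Y' gene without a YRF1 symbol counts among the other genes. Of the 203, 6 were overlapped by a bin at least in part: YBL113C, MAL31, YER188C-A, YHL041W, RSC9 and YOL166W-A. When each bin was given to its nearest gene within 1 kb, 109 bins went to named families and 124 to other genes. COS genes were nearest to 8 bins (2 of 10 genes, COS8 and COS9), with a median of 0.62. Seripauperin and cell wall mannoprotein genes were nearest to 20 bins (5 of 17 genes), with a median of 0.62 and a range of 0.49 to 0.91. YRF1 genes were nearest to 19 bins (2 of 8 genes) with a median of 0.69, maltose and hexose genes to 24 bins (2 of 13 genes) with a median of 0.51, and IMD2 to 38 bins with a median of 0.54. Over all 203 genes, 40 (19.7%) were nearest to a bin within 1 kb, so these gene counts are near the general share. The family medians ran from 0.51 to 0.69 and each rested on 1 to 5 genes.

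No bin within 1 kb was nearest to a gene of the other families, which are too small for a count of 0 to stand apart from the 19.7% of all genes. These were the flocculin gene (0 of 1), aryl-alcohol dehydrogenase genes (0 of 4), iron and copper uptake genes (0 of 3), thiamine and pyridoxine genes (0 of 6), PHO genes (0 of 2), ERR, FDH and ADH genes (0 of 7), VTH, RDS and PHD genes (0 of 2), and sulfonate and amino acid salvage genes (0 of 2). No biotin gene was centred in the windows. A bin did lie within 1 kb of AAD15, ARN2 and PHO12, but another gene, or in the case of AAD15 the short YOL166W-A, was nearer.

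Relative to gene direction, 10 of 311 bins (3.22%) had their middle inside a gene, although genes make up 53.3% of this sequence. In interior arms 41.0% of positive bins lay inside genes, which make up 75.1% of sequence there. Beyond the last gene lay 28.3% of subtelomeric bins, against 4.61% of the sequence. Intergenic bins were spread over all orientations, with 59 between convergent genes (19.0% of bins, 7.51% of sequence), 94 between tandem genes (30.2% and 20.3%) and 60 between divergent genes (19.3% and 14.2%). Convergent sequence thus held 2.52 times its share, against 7.29 times in interior arms, and divergent sequence 1.35 times against 0.883 times. Without the last 1 kb, 1.87% of bins were inside genes, and the convergent, tandem and divergent ratios were 3.27, 2.06 and 1.87.

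**Figure D5:**
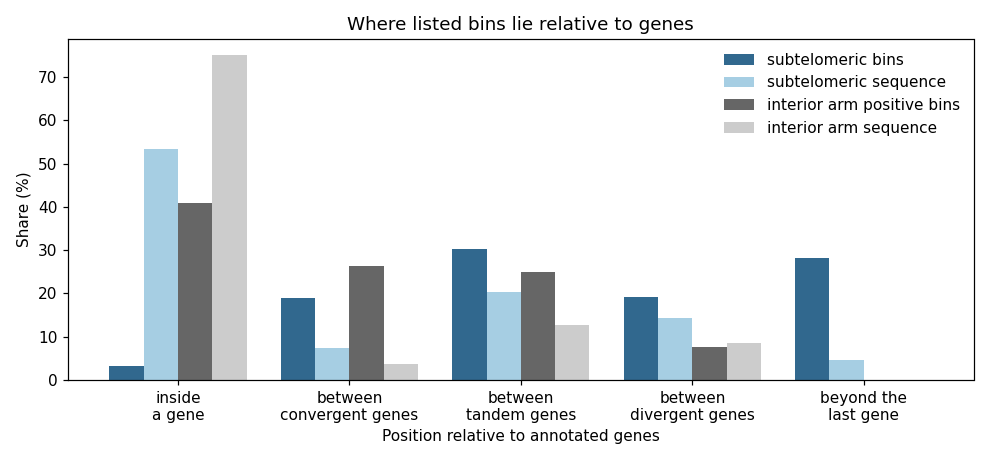
Share (%, y axis) of listed bins and of all sequence by position relative to annotated genes (x axis), for subtelomeres (blue, bins dark and sequence light) and for interior arms (grey, positive bins dark and sequence light). Bins inside genes make up 3.22% in subtelomeres and 41.0% in interior arms, and 28.3% of subtelomeric bins lie beyond the last gene.

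Listed intergenic bins also lay farther from genes than in interior arms. Genes make up 53.3% of the subtelomeric sequence and 75.1% of the interior. Of 213 subtelomeric bins between genes, 47.4% faced the 3′ end of the nearest gene, against 63.9% of 4181 positive interior bins. Their median distance to that gene was 341.5 bp, against 118.5 bp. By orientation, the median log2 fold change was 0.64 for divergent, 0.56 for tandem and 0.54 for convergent subtelomeric bins, the same order as the 0.63, 0.60 and 0.53 of interior arms. Which bins were tested is unknown, so the shares by orientation describe listed bins against all sequence and were not tested. Facing shares and distances are those of listed bins only, and were not measured over all intergenic sequence.

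Listed bins were sparser at these ends than at those of the 3 short chromosomes I, III and VI. The share of 1.20% in the longer chromosomes (311 of 25992 positions) stood against 2.48% in the short ones (149 of 5999, Wilson 2.12 to 2.91), and the median of 0.58 against 0.63. In the last 1 kb the shares were 7.51% in the longer and 16.7% in the short chromosomes. From 1 to 5 kb the longer chromosomes had 1 bin in 5200 positions, where the short ones had 27 in 1200. At the 20 kb limit the values were within the range of the subtelomeric bins. In the authors' deposited table the last bin inside was on XVI right, 19.1 kb from the end (0.66, SE 0.21), and the first bins outside were on IV left and IX right, both 20.3 kb from the end (0.58, SE 0.20, and 0.50, SE 0.17).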

How the data were processed

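Rec8 ChEC-seq was done on 3 ctf19-9A and 3 WT cultures, grouped by their titles. Bowtie2 2.5.0 (an aligner), DESeq2, deepTools 3.4.3 and FastQC 0.11.9 are listed in the submitters' processing notes with builds R64 and sacCer3, but without settings or read filters. Per the file headers, the 1 deposited table gives a p-value, a false discovery rate, a log2 fold change and a shrunken log2 fold change per 20 bp bin, all made by the authors from the 6 samples. Every false discovery rate was under 0.05, and rank, p-value and rate of the last bin imply 154927 bins in a Benjamini-Hochberg adjustment.

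SE is the size of the log2 fold change divided by the normal deviate of its p-value. Distances run from a bin's middle to the R64 chromosome end. Genes came from a RefSeq table of R64, where 96.4% of protein-coding lengths are multiples of 3, so these are coding lengths without UTRs. Centromeres were placed between the innermost genes of both arms. Bins of 1 sign were grouped when at most 500 bp apart. Named were the bin with the smallest adjusted p at each end, the 10 highest bins at most 1 per 5 kb, up to 4 genes per family, and bins beside the 20 kb limit; medians of other groups were added after their values were seen. Members, families and bands were chosen with earlier results of these data known. Scripts ran in Python 3.11.15 with pandas 2.3.3 and scipy 1.17.1 and were tested on simulated data. No genome sequence was used here. Reads were placed on the reference strain's assembly, and the cultured strains' subtelomeres may differ from it.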

Additional observations from a re-analysis of the deposited data

How the results depend on the processing

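Of 35 alternatives, 20 stayed close to the reported value (within 1.5 times for a count or a difference, the SD of 0.14 between end medians for a median, the Wilson interval for a share), 15 moved and 0 reversed. The 311 bins became 195 with a 10 kb window, 536 with 30 kb and 90 with an adjusted p under 0.01. The listed share of 1.20% became 1.5% with 10 kb, 1.37% with 30 kb, 0.346% with an adjusted p under 0.01 and 0.866% without the last 1 kb, an alternative chosen after seeing the data. The median of 0.58 was 0.43 with shrunken values, in which all changes are pulled toward 0. Merging gaps of up to 500 bp turned 86 regions into 51. The share of bins inside genes was 0.643% with named protein-coding genes only. Named families had 1 bin by overlap and 109 by nearest gene within 1 kb. The difference of 0.0384 from interior arms became 0.0198 with 10 kb, 0.0125 with 30 kb, 0.0775 with an adjusted p under 0.01 and 0.0196 with shrunken values, and was 0.0395 with both sides limited to the middle 80% of SE and 0.0412 without the last 1 kb. No paired analysis was possible because the deposited table holds no value for a single culture, and for the same reason no culture could be left out. Depth is unknown, and unlisted bins were not analysed here.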
